A study of Mus musculus with 248 samples.

Results

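Cluster E is one of 5 groups into which the authors divided single hematopoietic stem cells (HSCs) of the mouse. Its members here are the genes that the authors' deposited table of cluster genes gives as upregulated in cluster E over all other cells, 454 of the 3336 entries for clusters A to E. They were chosen by the authors' log fold change and p-value for cluster E, and they make up 2.80% of the 16203 genes taken as tested, so these values are given as a description. The cells came from C57Bl6 mice and were sorted as Lin-Sca1+cKit+CD150+CD48-, then by mitochondrial membrane potential (MMP) into MMP-high and MMP-low cells. The series holds 126 MMP-high and 122 MMP-low libraries, 1 cell each, made with SMART-Seq v4 chemistry on the Fluidigm C1 platform, which captures single cells in microfluidic chambers. Age, sex and the number of mice are not given in the labels, so each MMP group counted as 1 sample, and the cells of each cluster are not named. No test of spread between animals was therefore possible, and folds, detection and p-values below are the authors' own.

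The membrane potential of mitochondria is built up by the respiratory chain and drives ATP synthesis and the import of proteins into the organelle. Long-term HSCs rest for most of their lives, and on leaving rest they replicate DNA and raise transcription, RNA processing and protein synthesis. The series set quiescent MMP-low cells against primed MMP-high cells.

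The whole set of libraries limits what detection can show. The median number of genes detected was 3796 in MMP-high libraries (n = 126, range 1130 to 5200) and 2317 in MMP-low libraries (n = 122, range 514 to 3674). Mapped reads had a median of 568089 per MMP-high library and 508338 per MMP-low library. For libraries numbered up to 85 this median was 1035705 in MMP-high against 472174 in MMP-low. Above 85 it was 454512 in MMP-high against 564476 in MMP-low. Among libraries numbered up to 85 the medians of genes detected were 4080 for MMP-high against 2500 for MMP-low, and among those numbered above 85 they were 1905 for MMP-high against 2083 for MMP-low. The authors state that 224 cells were kept at over 600000 reads and over 5500 genes, a gene number that 0 of the 248 libraries exceeded in the quality table. Which libraries made up cluster E is not given, so the part of genes detected per library in the values below was not tested.

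Genes of the DNA replication machinery were among the cluster E entries, Pold1 being the one among the 20 of largest log fold change. Promoters of Pold1, Mcm5 and Mcm6 are shown because E2F factors, the regulators of entry into S phase, are known to act on such genes. Each run is the RefSeq promoter of GRCm38.p6, from 250 bases before to 50 bases after the start of the gene, 5′ to 3′ on the strand of the gene. Pold1 lies at chr7:44548766-44549065 on the minus strand, Mcm5 at chr8:75109259-75109558 on the plus strand and Mcm6 at chr1:128359656-128359955 on the minus strand. Capitals mark every match, on either strand, to the E2F spellings TTTCCCGC, TTTGGCGC and TTTCGCGC, which can overlap.
Pold1: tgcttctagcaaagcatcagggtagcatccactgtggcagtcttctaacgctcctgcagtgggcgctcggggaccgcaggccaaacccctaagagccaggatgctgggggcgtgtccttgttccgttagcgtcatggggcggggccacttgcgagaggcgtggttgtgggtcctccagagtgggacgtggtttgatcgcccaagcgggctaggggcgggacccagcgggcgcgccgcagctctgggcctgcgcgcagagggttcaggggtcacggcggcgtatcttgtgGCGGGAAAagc
Mcm5: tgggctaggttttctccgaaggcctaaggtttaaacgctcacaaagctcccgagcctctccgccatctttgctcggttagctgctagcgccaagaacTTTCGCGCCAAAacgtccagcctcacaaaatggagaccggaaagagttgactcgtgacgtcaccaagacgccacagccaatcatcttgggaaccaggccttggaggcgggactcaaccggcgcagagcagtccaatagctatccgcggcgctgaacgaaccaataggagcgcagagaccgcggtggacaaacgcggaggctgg
Mcm6: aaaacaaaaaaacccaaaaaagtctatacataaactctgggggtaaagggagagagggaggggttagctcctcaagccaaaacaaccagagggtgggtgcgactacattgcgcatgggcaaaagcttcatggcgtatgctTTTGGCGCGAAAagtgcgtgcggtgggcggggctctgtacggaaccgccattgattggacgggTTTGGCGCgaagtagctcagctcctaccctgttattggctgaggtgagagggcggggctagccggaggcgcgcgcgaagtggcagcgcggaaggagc
The promoter of Pold1 held 1 match, that of Mcm5 held 2 overlapping matches, and that of Mcm6 held 3 matches in 2 runs. Among the 7 G1/S and DNA replication members of cluster E with a promoter entry, Cdk2 also held a match, and Slbp, Rrm1 and Rpa1 held none. At least 1 of these 3 spellings stood in the promoters of 573 of 27025 genes, or 2.12%. Promoter entries were found for 354 of the 454 cluster E genes, or 78%, and for those 7 of the 10 members on the list of G1/S and DNA replication genes, and this coverage is too low for a share over either set. The 3 genes were chosen after a search of 13 motif strings with values known, and a match describes letters only.

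Faap100, Ptcd3 and Mier2 had the largest log fold changes of cluster E. The largest log fold change by the authors' deposited table was that of Faap100, a subunit of the Fanconi anaemia core complex, which repairs crosslinked DNA. It was 0.70, in a log base that the table does not state, and Faap100 was detected in 100% of cluster E cells and in 25.5% of all other cells, with an authors' adjusted p of 2.89e-08. Ptcd3, a protein of the mitochondrial ribosome, came next, with a log fold change of 0.65 by the authors' deposited table and detection in 100% of cluster E cells and 44.8% of other cells. Mier2, which recruits histone deacetylases, had a log fold change of 0.62 by the authors' deposited table, with detection in 100% of cluster E cells and 35.4% of other cells. Their lists as a whole gave cluster E 5 of 75 DNA repair genes, or 6.67%, with 1 at an adjusted p under 0.05, 1.89% of the mitochondrial ribosome list and 4 of 96 chromatin modifier genes, or 4.17%, with 3 at that threshold, while cluster D had 4, 5 and 4 genes, by the authors' deposited table. Over all genes taken as tested, the share listed was 2.80% for cluster E and 3.23% for cluster D. Faap100, Ptcd3 and Mier2 went with a gap in detection: every cell of cluster E held them and fewer than 50% of the remaining cells did.

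Other leaders differed in level while being detected nearly everywhere. Muc13, a transmembrane mucin, was detected in 100% of cluster E cells and 100% of other cells by the authors' deposited table, at a log fold change of 0.59 and an adjusted p of 0.0302. Trim28, a corepressor that works with zinc finger proteins, had a log fold change of 0.52 per the authors' deposited table, with detection in 100% of cluster E cells and 99% of other cells. Naa50, the catalytic subunit of an N-terminal acetyltransferase, lay between these patterns, with a log fold change of 0.60 by the authors' deposited table and detection in 100% of cluster E cells and 66.7% of other cells. Of the 20 genes of largest log fold change with predicted genes left out, 19 were detected in every cluster E cell and 16 had an adjusted p under 0.05 by the authors' deposited table. The exception in detection was Tyw3, an enzyme of tRNA modification, at 93.8% of cluster E cells and 34.4% of other cells by the authors' deposited table.

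**Figure D1:**
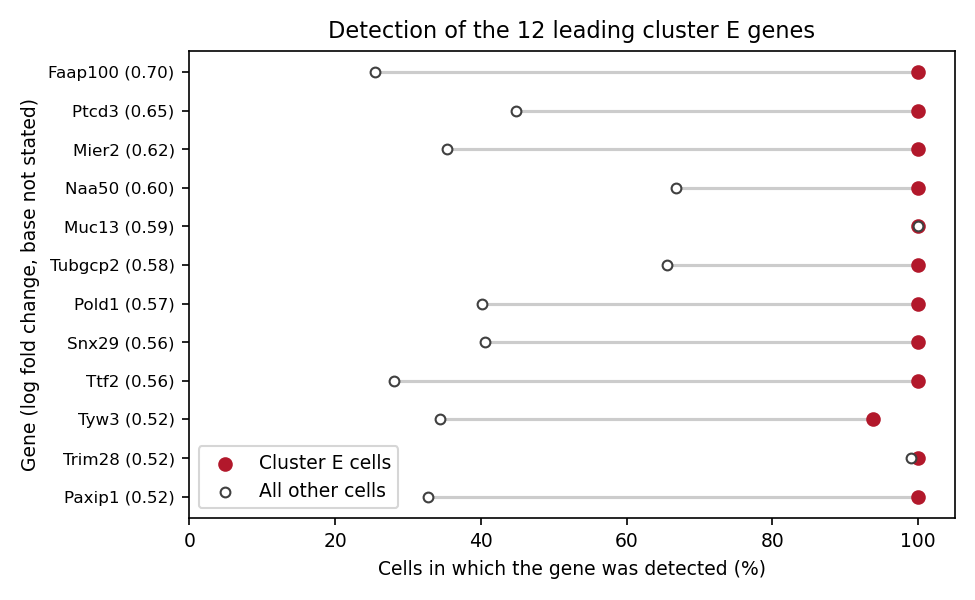
Share of cells, in percent, in which each of the first 12 cluster E genes by log fold change was detected, with cluster E cells as filled points and all other cells as open points and the log fold change beside each name. Points of cluster E stand at 100% for 11 of these 12 genes, while those of other cells run from 25.5% for Faap100 to 100% for Muc13.

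Over the 454 genes, log fold changes by the authors' deposited table lay between 0.25 and 0.70, with a median of 0.30. The adjusted p of the authors' deposited table was under 0.05 for 182 of them, or 40.1%, against 1.12% of the genes taken as tested, and it was 1 for 169. For cluster D the adjusted p was under 0.05 for 301 of 524 genes, with 1.86% of the genes taken as tested. The authors' list goes by an unadjusted p, of which the highest in cluster E was 0.00887, and genes just outside these limits are not among the entries. At the lower edge of detection stood Ift122, a gene of cilium transport, in 34.4% of cluster E cells and 6.8% of other cells per the authors' deposited table, with an adjusted p of 1. Among the widest gaps in detection were those of Usp33, a deubiquitinase, at 100% of cluster E cells and 21.9% of other cells, and of Lrrn4, at 100% of cluster E cells and 25% of other cells, by the authors' deposited table. Neither was among the 20 leaders by fold, since Usp33 had a log fold change of 0.34 and Lrrn4 one of 0.35 by the authors' deposited table.

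The share of entries with full detection was higher for cluster E than for each of the other 4 clusters. By the authors' deposited table, 383 of the 454 cluster E genes, or 84.4%, were detected in every cell of their cluster. The same held for 243 of 524 genes of cluster D (46.4%), 222 of 830 of cluster C (26.7%), 239 of 674 of cluster B (35.5%) and 430 of 854 of cluster A (50.4%) by the authors' deposited table. How many cells each cluster held is not stated and was not worked out here from the detection fractions. With all else equal, a small cluster reaches full detection more readily than a large one. The part of cluster size in these shares was not tested. In the cells outside each cluster the median detection was 67.2% for cluster E genes and 58.7% for cluster D genes per the authors' deposited table, and 17 of the cluster E genes were detected in 100% of the cells on both sides.

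**Figure D2:**
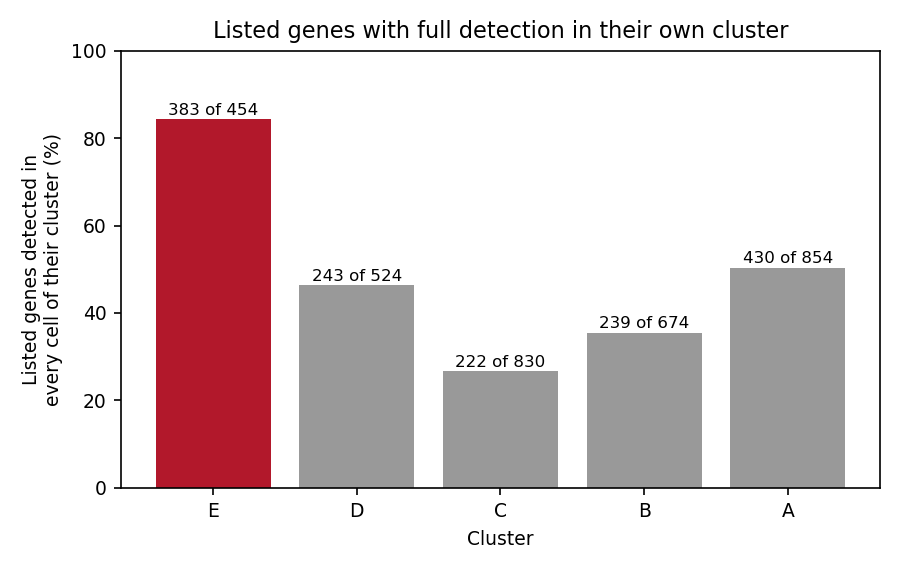
Share, in percent, of the genes listed for each cluster that were detected in every cell of that cluster, with the counts above the bars. Cluster E stands at 84.4% (383 of 454 genes), and the other 4 clusters lie between 26.7% and 50.4%.

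Genes of S phase and of mitosis were both among the cluster E entries, and most did not pass the adjusted threshold. Of 71 genes on the list of G1/S and DNA replication, 10, or 14.1%, were listed for cluster E and 11 for cluster D by the authors' deposited table, with 3 in common, against 2.80% of all genes taken as tested listed for cluster E. The 10 were Pold1, Mcm5, Mcm6, Cdk2, Pole, Slbp, Tipin, Gmnn, Rrm1 and Rpa1, and 9 of them were also listed toward MMP-high cells. Pold1, the catalytic subunit of DNA polymerase delta, whose promoter is printed above, had a log fold change of 0.57 by the authors' deposited table, with detection in 100% of cluster E cells and 40.1% of other cells, with an adjusted p of 2.19e-05. It was the single member of the 10 with an adjusted p under 0.05. Mcm5 and Mcm6, subunits of the helicase that opens replication forks, had log fold changes of 0.39 and 0.37 in cluster E by the authors' deposited table, each with an adjusted p of 1. Their detection differed, since Mcm5 was found in 100% of cluster E cells and 66.1% of other cells, and Mcm6 in 100% of cluster E cells and 99% of other cells, by the authors' deposited table.

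On the list of 75 genes of G2/M and mitosis, 4, or 5.33%, were listed for cluster E and 10, or 13.3%, for cluster D by the authors' deposited table. These shares stand beside 2.80% of all genes taken as tested for cluster E and 3.23% for cluster D. The 4 of cluster E were Kif20b and Racgap1, which act in the division of daughter cells, the centromere protein Cenph and the cyclin Ccnb2. Of these Kif20b alone had an adjusted p under 0.05, at 0.00787, with a log fold change of 0.38 and detection in 100% of cluster E cells and 49.5% of other cells by the authors' deposited table. Whether the 2 clusters differ in these counts was not tested.

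Mitochondrial genes in cluster E came from several parts of the organelle, each with few members. Of the mitochondrial ribosome and RNA processing list 1.89% were listed for cluster E, below the 2.80% of all genes taken as tested, with 2 members for cluster E, 5 for cluster D, 7 for cluster C, 5 for cluster B and 6 for cluster A by the authors' deposited table. The 2 members were Ptcd3 and Mrps27, a protein of the small subunit. Mrps27 was detected in 100% of cluster E cells and 34.4% of other cells at a log fold change of 0.32 and an adjusted p of 8.33e-06 by the authors' deposited table. Of 39 aminoacyl tRNA synthetases 3, or 7.69%, were listed for cluster E, with 3 for cluster D, 6 for cluster C, 3 for cluster B and 2 for cluster A. Those of cluster E include Tars2 and Nars2, which charge tRNAs inside mitochondria. By the authors' deposited table both were detected in 100% of cluster E cells, against 50.5% of other cells for Tars2 and 38% for Nars2, with log fold changes of 0.35 each. Their adjusted p was 6.82e-05 for Tars2 and 0.000465 for Nars2 by the authors' deposited table, and neither was listed for cluster D.

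Import and respiration were represented mostly by genes that at least 83.3% of other cells held, Ndufv1 being the exception. Timm23 and Timm17a, channel subunits of the inner membrane translocase, and the import receptor Tomm70a had log fold changes of 0.34, 0.26 and 0.28 and an adjusted p of 1 each by the authors' deposited table. Of 77 respiratory chain and ATP synthase genes, 3, or 3.9%, were listed for cluster E and 5 for cluster D, with 2 in common, per the authors' deposited table, and the share for cluster E is near the 2.80% of all genes taken as tested. Ndufv1, which carries the NADH site of complex I, was detected in 100% of cluster E cells and 55.2% of other cells at a log fold change of 0.31 and an adjusted p of 0.0608 by the authors' deposited table. Ndufa4, a subunit of complex IV, and Sdhd, a membrane anchor of complex II, were detected in 100% of cells on both sides. Pdk3, which inhibits pyruvate dehydrogenase, was the single member, or 3.33%, of 30 genes of the TCA cycle list (log fold change 0.36). The phosphofructokinase Pfkp was the single member, or 5.0%, of 20 glycolytic genes (log fold change 0.37), both per the authors' deposited table. Each share rests on 1 gene and stands beside the same 2.80%, so nothing is read from it.

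Nucleolar, RNA processing and protein turnover genes filled further lists. Of 110 genes of ribosome biogenesis, Myc and translation factors, 11, or 10%, were listed for cluster E and 9 for cluster D by the authors' deposited table, led in cluster E by Noc4l, a nucleolar protein, with a log fold change of 0.43 and an adjusted p of 0.000669. Of 82 cytosolic ribosomal protein genes none was listed for cluster E and 7 were listed for cluster D by the authors' deposited table, while 5 pseudogenes of ribosomal proteins were listed for cluster E (Rpsa-ps1, Rps18-ps1, Rpl3-ps2, Rpsa-ps2 and Rpsa-ps9). Reads of such pseudogenes cannot be told apart with certainty from those of their parent genes. Of 134 splicing factors and RNA helicases, 11, or 8.21%, were listed for cluster E and 9 for cluster D, with 5 in common, by the authors' deposited table. Srsf1, a splicing activator, led them with a log fold change of 0.49 and an adjusted p of 0.229 by the authors' deposited table. The proteasome list gave 3 members for cluster E (Psmd1, Psma5 and Psmf1), or 6.12%, and 3 for cluster D by the authors' deposited table. Ubiquitin ligases and deubiquitinases gave 7 genes for cluster E, or 6.25%, and 11 for cluster D by the authors' deposited table. Of all genes taken as tested 2.80% were listed for cluster E and 3.23% for cluster D, beside which all counts of this paragraph stand. At 2.80% a list of 82 genes would hold few members, so nothing is read from the zero among ribosomal proteins. Among the 7 ubiquitin genes of cluster E was Otud6b, a deubiquitinase, with a log fold change of 0.41 and an adjusted p of 0.0267 by the authors' deposited table.

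Lysosomal and stem cell genes were listed in larger number for cluster A than for cluster E. Cluster A has 854 entries in all and cluster B 674, against 454 for cluster E, so the counts are not on 1 scale. Of 64 lysosomal genes 4, or 6.25%, were listed for cluster E, against 2.80% of all genes taken as tested, 4 for cluster D, 3 for cluster C, 13 for cluster B and 14 for cluster A by the authors' deposited table. No vacuolar ATPase subunit, the pump that acidifies lysosomes, was listed for clusters E, D or C by the authors' deposited table. Of the 19 subunits 2 were listed for cluster B and 7 for cluster A. A list of 19 genes would hold few or no members at 2.80%, so nothing is read from the zero for cluster E. The list of 64 genes of stem cell identity and quiescence gave 2 members in cluster E, or 3.12% beside the same 2.80%, and 15 in cluster A per the authors' deposited table. The 2 were Muc13 and Flt3, a receptor tyrosine kinase known for its expression in multipotent progenitors. Flt3 was detected in 100% of cluster E cells and 63% of other cells at a log fold change of 0.47 and an adjusted p of 0.000556 by the authors' deposited table, and it was not listed for either MMP group.

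Markers of other cell types, of mature blood cells as well as endothelium and stroma, gave few cluster E entries. Of 177 such markers 2, or 1.13%, were listed for cluster E, against 2.80% of all genes taken as tested, 3 for cluster D, 29 for cluster B and 23 for cluster A by the authors' deposited table. Entries in all number 454 for cluster E, 524 for cluster D, 674 for cluster B and 854 for cluster A. No member of the 44 granulocyte, monocyte and macrophage markers, the 26 megakaryocyte and platelet markers or the 58 interferon genes was listed for cluster E by the authors' deposited table. At the 2.80% listed of all genes taken as tested, lists of these sizes would hold few or no members, so nothing is read from these zeros.

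Among the other clusters, cluster D held most of what cluster E shared. The genes listed for both made up 26.2% of the cluster E genes and 22.7% of the cluster D genes by the authors' deposited table (cluster D lists 3.23% of the genes taken as tested). Cluster E shared 9 genes with cluster C, 1 with cluster B (Exoc3) and 2 with cluster A (Thoc3 and Zfp410), and 324 genes were listed for cluster E alone. The cells of cluster D are part of the cells that cluster E was set against, and the reverse, so the 2 lists are not independent.

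Log fold changes of the shared genes were more often larger for cluster D. Of the shared genes 33 had the larger log fold change in cluster E and 86 in cluster D, with medians of 0.30 in cluster E and 0.36 in cluster D, by the authors' deposited table, a difference that was not tested. Ptcd3, Mier2 and Naa50 ran the other way, with log fold changes of 0.65, 0.62 and 0.60 in cluster E and 0.43, 0.28 and 0.26 in cluster D per the authors' deposited table. Each was detected in 100% of the cells of both clusters. Vav1, an exchange factor for small GTPases in blood cells, had log fold changes of 0.48 in cluster E and 0.67 in cluster D, and Adssl1, an enzyme of purine synthesis, had 0.42 in cluster E and 0.57 in cluster D, by the authors' deposited table. For Vav1 the adjusted p was 0.0035 in cluster E and 1 in cluster D by the authors' deposited table, although its fold was larger in cluster D. Faap100, Pold1, Ttf2, Paxip1 and Flt3 were listed for cluster E and not for cluster D, which does not show that the 2 clusters differ in them, since no direct comparison was made.

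**Figure D3:**
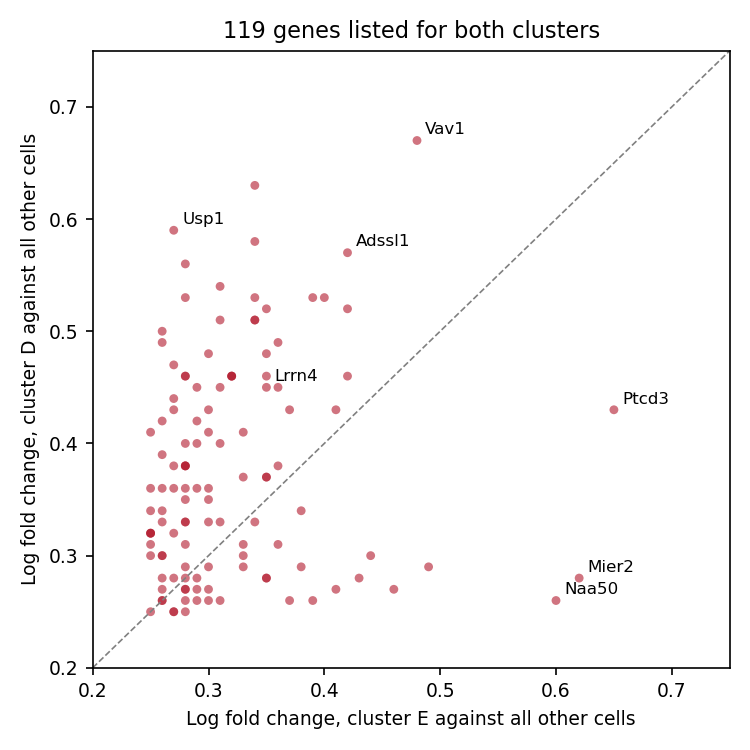
Log fold change against all other cells of the genes listed for both clusters, in cluster E on the horizontal axis and in cluster D on the vertical axis, with a dashed line at equal values. Above the line lie 86 genes, among them Vav1, and Ptcd3, Mier2 and Naa50 lie farthest below it.

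The cluster E genes lay on the MMP-high side of the authors' comparison of the 2 sorted groups. By the authors' deposited table of that comparison 223 of the 454 genes, or 49.1%, were listed toward MMP-high, 1 (Exoc3) toward MMP-low, and 230 were not listed. Of all 16203 genes taken as tested, the share toward MMP-high was 5.67% and the share toward MMP-low was 5.86%. At an adjusted p below 0.05, 162 of the cluster E genes stood toward MMP-high by the authors' deposited table, or 35.7%, against 3.69% of the genes taken as tested, and none toward MMP-low. The 2 comparisons use the same cells, so this does not stand as separate evidence. For cluster D the authors' deposited table gave 279 of 524 genes toward MMP-high and none toward MMP-low, for cluster C 14.6% of its genes toward MMP-high and 7.23% toward MMP-low, and for clusters B and A 407 and 556 toward MMP-low with none toward MMP-high.

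Genes that cluster E shared with cluster D and genes that it did not share were placed differently. Of the shared genes 99, or 83.2%, were listed toward MMP-high by the authors' deposited table, and of the 335 cluster E genes not listed for cluster D 37% were. Among those listed toward MMP-high, the shared genes had a median detection of 84.0% in MMP-high cells against 47.6% in MMP-low cells, and the others 96.2% in MMP-high cells against 76.6% in MMP-low cells, by the authors' deposited table. The difference was not tested. Both clusters lay on the MMP-high side and the same cells were used, so a larger share among genes listed for both follows in part from that choice.

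Single genes ranged from near absence in MMP-low cells to full detection in both groups. Faap100 was detected in 67.2% of MMP-high cells against 1.0% of MMP-low cells by the authors' deposited table, with an adjusted p of 1.73e-19. Pold1 was found in 78.2% of MMP-high cells against 15.2% of MMP-low cells and Mrps27 in 71.4% of MMP-high cells against 12.4% of MMP-low cells, again from the authors' deposited table. Trim28 had the largest log fold change of any cluster E gene toward MMP-high, 0.93, with detection in 100% of MMP-high cells against 98.1% of MMP-low cells by the authors' deposited table. Of the 223 genes 16 were detected in no larger a share of MMP-high than of MMP-low cells. Hist1h2ao and Hist1h2ap, near-identical histone genes among which reads may be split, were 2 of these, at 99.2% of MMP-high cells against 100% of MMP-low cells by the authors' deposited table. Of the 20 leaders of cluster E by fold 15 were listed toward MMP-high, while the other 5, among them Snx29, Tyw3, Paxip1 and Flt3, were not listed for either group.

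**Figure D4:**
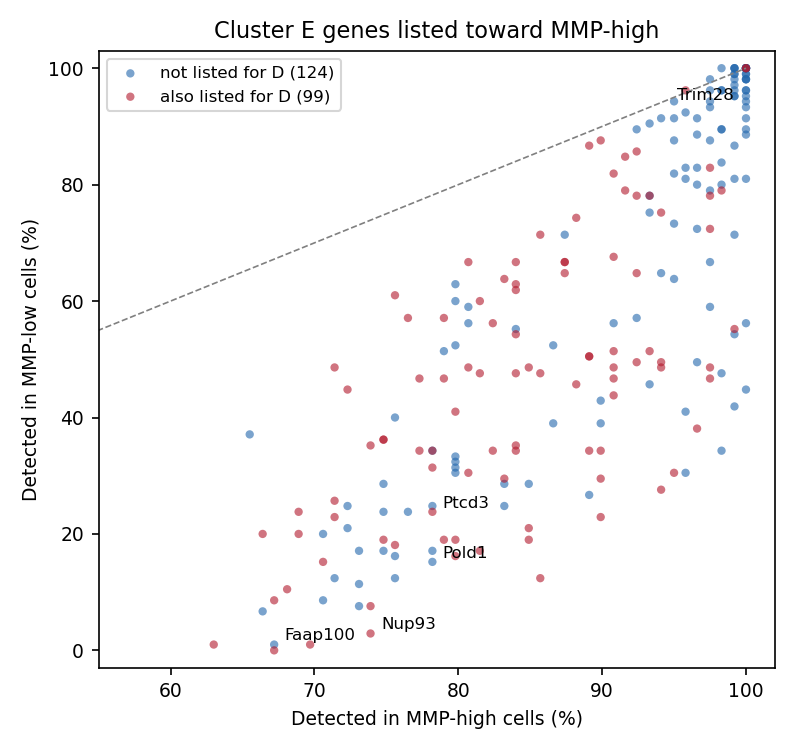
Detection, in percent of cells, in MMP-high (horizontal) and MMP-low cells (vertical) of the 223 cluster E genes listed toward MMP-high, split into the 99 also listed for cluster D and those not, with a dashed line at equal detection. Most genes lie below the line, Faap100 at 67.2% in MMP-high cells against 1.0% in MMP-low cells, and 16 lie on or above it.

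The authors also gave genes shared between their MMP groups and published lists of activated (aHSC) and dormant (dHSC) stem cells. Of the 55 genes higher in both MMP-high cells and aHSCs 16 were cluster E genes, which is 29.1% of that list and 3.52% of the cluster E genes, and 18 were cluster D genes, by the authors' deposited table. Pold1, Ttf2, Prmt5, Rrm1, Shmt2 and Psat1 were among the 16, with Shmt2 and Psat1 enzymes of serine and one-carbon metabolism and Rrm1 a subunit of ribonucleotide reductase. None of the 99 genes higher in both MMP-low cells and dHSCs was listed for cluster E or for cluster D, against 68 listed for cluster A, by the authors' deposited table. Both lists hold only genes already higher in the MMP group they name, and since 1 cluster E gene and no cluster D gene was listed toward MMP-low, the second count was fixed by that. Of all 919 genes listed toward MMP-high 24.3% were cluster E genes, against the 29.1% of the aHSC list.

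Terms that the authors found for cluster E named RNA binding, mitochondria, export of mRNA from the nucleus and DNA replication, among others. Their deposited term table held 62 terms, of which 43 had an adjusted p under 0.05, and 188 of the 454 genes stood behind them. Many terms repeated one gene set. All 21 terms of molecular function shared 54 genes, and RNA binding counted 54 of 1199 with an adjusted p of 6.11e-05 by the authors' deposited table. Another 5 terms for mitochondria and their special forms held the same 42 of 919 genes, with an adjusted p of 0.00147 by the authors' deposited table, and 7 spliceosomal terms held the same 7 genes. Of the 42 mitochondrial genes 30 were listed toward MMP-high and 12 were also listed for cluster D, and the 42 include Parp1, Sox4 and Jarid2, known best as nuclear proteins.

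Nuclear pore genes recurred in the terms of biological process. Nup93, Nup210, Nup50, Nup54 and Aaas stood together in 8 of these 21 terms, among them export of mRNA from the nucleus, with 10 of 100 genes and an adjusted p of 0.029, and disassembly of the nuclear envelope in mitosis, with 7 of 44 genes and an adjusted p of 0.026, by the authors' deposited table. Nup93, a scaffold protein of the pore, was detected in 100% of cluster E cells and 30.7% of other cells and in 73.9% of MMP-high cells against 2.9% of MMP-low cells, by the authors' deposited table. Aaas, which binds to the cytoplasmic face of the pore, was detected in 100% of cluster E cells and 58.3% of other cells at a log fold change of 0.39 by the authors' deposited table. Of the 5 pore genes 3 were listed toward MMP-high, while Nup50 and Nup54 were not listed for either group, and the adjusted p for cluster E was 7.59e-05 for Nup93, 0.00573 for Aaas, 0.045 for Nup54, 0.0763 for Nup50 and 1 for Nup210 by the authors' deposited table. DNA replication counted 10 genes with an adjusted p of 0.0355, among them Pold1, Mcm5, Mcm6, Cdk2, Pole and Rpa1, by the authors' deposited table. In all 5 of the 21 terms of biological process had an adjusted p under 0.05, and 9 of the 62 terms stood also in the term table of cluster D. RNA binding, mitochondrion and DNA replication were among those 9, so these themes were not particular to cluster E. Their adjusted p for cluster D was 0.0199, 0.000442 and 0.0368 by the authors' deposited table. Export of mRNA from the nucleus was not among the 9, but 4 of its 10 genes were also listed for cluster D. Each cluster's term table held 21 terms of biological process, and whether these were cut is not stated. Its absence for cluster D therefore does not make this theme particular to cluster E.

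The pairs of cluster E with cluster D carried the authors' mark in each of 13 pathway scores. The authors' deposited table of cluster pairs gives a z for each pair, with no statement of which cluster a negative sign puts higher, so only sizes and shared signs are described. Paired with cluster D, cluster E had a negative z in all 13 pathways, between -7.24 for macroautophagy and -3.09 for the electron transport chain, and all 13 carried the authors' asterisk in the deposited table. The signs were the same for the pairs with clusters C and B, where z lay between -7.97 and -3.30 and between -10.67 and -4.73 by the authors' deposited table. Against cluster A the z by the authors' deposited table was nearer to 0, negative in 11 pathways, 0.05 for lysosomal vesicle biogenesis and 1.41 for the lysosome, and 5 of the 13 carried no asterisk. The rule behind the asterisks is not stated and they do not follow the printed p strictly. Among pairs without cluster E in the authors' deposited table, a pair with a p of 0.0116 had none while one with a p of 0.0236 had one. The latter was the highest p with an asterisk, and the TCA cycle pair of clusters E and A, with a p of 0.0421, had none.

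Respiratory scores were those in which cluster E lay nearest to cluster D. The z between them was -3.09 for the electron transport chain and -3.47 for oxidative phosphorylation by the authors' deposited table, and in these 2 pathways the smallest of the 4 values of cluster E was the one with cluster D. In the other 11 pathways the smallest was the one with cluster A. Translation factors (-7.17), purine metabolism (-7.11) and mRNA processing (-7.11) followed macroautophagy as the largest values between cluster E and cluster D by the authors' deposited table. The cells behind each score and the genes in it are not given in the table, and a score over cells has no spread over animals.

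**Figure D5:**
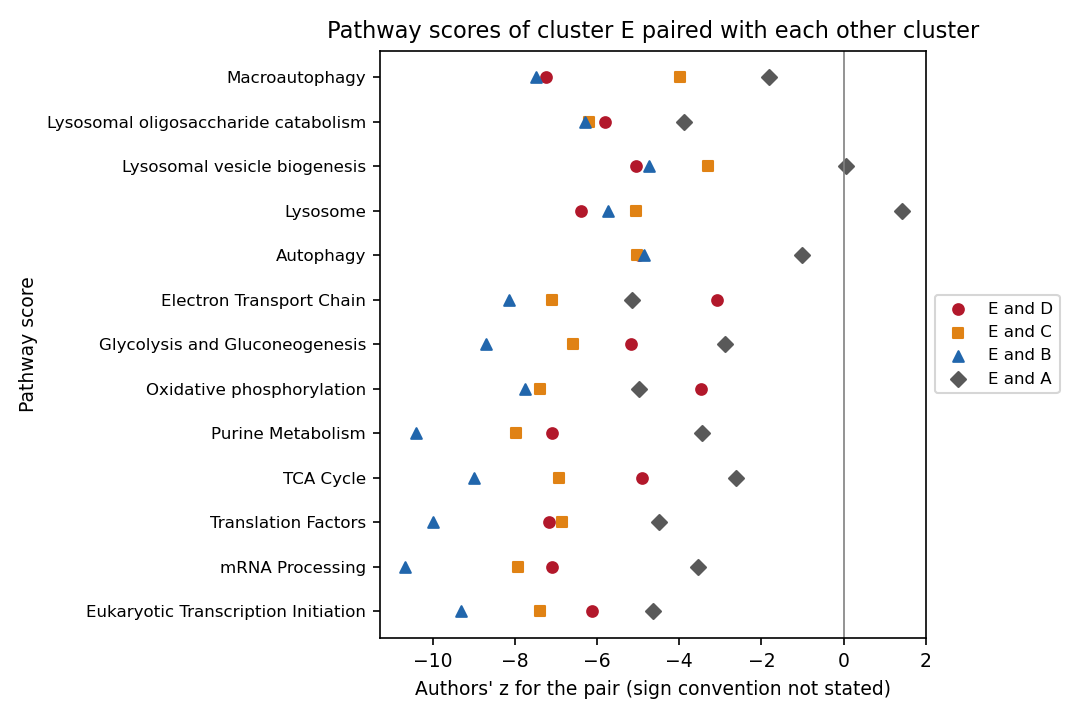
The authors' z (no unit, sign convention not stated) for cluster E paired with each of clusters D, C, B and A in 13 pathway scores, one row per pathway. Pairs with clusters D, C and B lie between -10.67 and -3.09, and those with cluster A between -5.15 and 1.41.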

How the data were processed

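Single HSC libraries were prepared with SMART-Seq v4 and Nextera XT, per the labels' protocols. STAR 2.5.2b, bcl2fastq 2.17.1.14 and the mm10 build appear among the submitters' processing notes. Counting, normalization, any filling in of values, clustering and the threshold for detection are not stated there. Deposited gene tables hold average log fold changes (a score whose log base is not stated), detection as a fraction of cells, which was turned into percent, and p-values. The table title names MAST for the MMP comparison. In every row where it could be computed the deposited adjusted p was 16203 times the p-value, so 16203 genes were taken as tested. Deposited term tables give combined scores and adjusted p-values, and the pair table gives z scores and p-values, which equalled 10 times the one-sided normal p in 130 of 130 pairs (tolerance 0.00011). Per the file headers, counts of reads and of genes detected describe each library.

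In the MMP table the first detection column was taken as that of the group named in the row: all 45 of its distinct values in MMP-high rows recur in the second column of MMP-low rows, and 6 in the first.

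No new test was made. Lists were compared by name (452 of 454 names matched 1 mouse symbol exactly) with Python 3.11.15 and pandas 2.3.3. Members and lists were chosen with earlier results of these data known. Genes named are the 20 of largest log fold change without predicted genes, the 5 at each end of detection, the first 4 per list, the first 10 shared with cluster D and the first 5 per MMP side; other named genes, including those of the terms and the aHSC list, were chosen after their values were seen. Some genes are not reported here. Stricter thresholds, gene filters and a split of libraries were tried as alternatives.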

Additional observations from a re-analysis of the deposited data

How the results depend on the processing

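No paired analysis was possible because the results come from no test of samples, and the shared library numbers of the MMP-high and MMP-low groups do not enter the cluster tables. Of the 454 cluster E genes listed by the authors, 182 had an adjusted p under 0.05, 142 one under 0.01, and 15 a log fold change of at least 0.5. Under these 3 settings the genes shared with cluster D numbered 56, 44 and 3, or 30.8%, 31% and 20.0% of the cluster E genes kept, against 26.2%. Genes listed toward MMP-high numbered 87, 66 and 11, against 223, or 47.8%, 46.5% and 73.3%, against 49.1%. The counts fell because fewer genes were kept. At an adjusted p under 0.05, 5 of the 16 genes of the aHSC list were kept. Without predicted genes, without genes detected in under 10% of other cells, or without cell type markers, these 3 counts stayed within 1.5 times their value. Of the 43 terms 29 had an adjusted p under 0.01, and 48 of the 52 pairs had an absolute z of at least 2. The median of genes detected in MMP-high libraries was 3796 in all, and 1905 among those numbered above 85, where the cause was not tested. Depth limits detection in all groups. The number of cells behind each percentage is not given and was not worked out here, so no interval was computed. The authors state that 224 cells were kept, so the MMP percentages rest on fewer cells than the 248 libraries.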
